A study of Mus musculus with 3 samples.

Results

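The genes described here encode the machinery that moves nucleosomes and writes, erases or reads marks on histones and DNA. They were taken by symbol: every oligo of the array with exactly 1 gene symbol in the platform annotation, where that symbol named a Smarc, Arid, Chd, Cbx, Hdac, Kat, Kmt, Setd, Kdm or Dnmt gene or a core gene of the Polycomb repressive complex PRC2 (Ezh1, Ezh2, Eed, Suz12). The rule gave 79 genes of the 15096 named on the array, carried by 94 oligos. Of these, 77 had a value on all 3 arrays and were tested among 19635 genes. Kat8 had a value on 1 array and Setd5 on 2, and neither was tested. Chd4, Chd7, Kdm6b and Kmt2d, which belong to the same families, were not analysed here.

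The series compared kidney of 13.5 dpc (days post coitum) mouse embryos with metanephric mesenchyme of 10.5 dpc embryos, the tissue from which the nephrons of the permanent kidney arise. Both tissues were microdissected from CD1 embryos of both sexes, pooled, with no allele or agent named in the labels, and their RNA was amplified before labelling. There were 3 arrays of the 2-colour kind, and each held both RNAs and gave 1 log2 ratio per oligo. Which RNA was the numerator, and which array carried the dye swap, could not be read from the labels; a positive or negative value below is the sign as deposited and stands for neither tissue.

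Chromatin remodellers use ATP to slide, evict or restructure nucleosomes, and the BAF complexes built from Smarc and Arid subunits, the ISWI enzymes and the Chd enzymes are separate families of them. Histone acetyltransferases and deacetylases set the acetyl marks of open chromatin, while methyltransferases of the Kmt, Setd and Ezh groups and demethylases of the Kdm group set methyl marks that can favour either expression or silencing. Polycomb complexes keep developmental genes silent: PRC2 places a methyl mark on histones, and Cbx subunits of PRC1 bind it. In the developing kidney, work in mice ties several of these enzymes, among them Hdac1, Hdac2, Ezh2, Eed and Dnmt1, to the upkeep and differentiation of nephron progenitors.

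The tissue labels were set against marker lists first. Of 11 measured genes of kidney mesenchyme and nephron progenitors 8 had a positive mean, and the mean of the list lay between 0.56 and 0.60 on the 3 arrays (log2 ratio). Of 13 genes of kidney epithelia 11 were positive, with list means from 0.40 to 0.78. On the negative side lay 11 of 12 red-cell genes (list means from -1.20 to -0.91), 12 of 14 somite and skeletal muscle genes (-0.75 to -0.37), 9 of 11 gut and liver genes (-0.95 to -0.58) and 8 of 12 neural genes (-0.44 to -0.18). The medians of the gene means were 0.29 for kidney mesenchyme, 0.19 for kidney epithelia and -0.43 for red cells, smaller in size than these list means. They were -0.50 for somite and skeletal muscle, -0.996 for gut and liver and -0.30 for neural genes. Endothelial genes were split 4 to 4 and germ cell genes 2 to 4. A log ratio gives no level, so it cannot show which markers are at 0, and in bulk tissue fewer cells of a type and less RNA per cell cannot be told apart. Markers of several cell types thus moved with the ratio, and their part in the results on chromatin genes was not tested.

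As a whole the chromatin genes were spread evenly over both sides. Of 77 genes 39 had a positive and 38 a negative mean, where 50.3% of all genes tested were positive, and the median of their means was 0.033 against 0.0020 over all genes. A mean of at least 1 in size, a 2-fold difference, was seen for 3 of them, Cbx7, Smarca4 and Ezh2, where 5.33% of all genes reached it. Ratios of the same sign on all 3 arrays were seen for 20 genes on the positive side (21.5% of all genes tested) and 17 on the negative side (19.9%), and 40 had arrays of both signs; over all genes tested 41.3% had the same sign on all 3. To test whether a mean differed from 0, limma was used, a linear model that borrows its estimate of spread across genes, with Benjamini-Hochberg adjustment over all genes. No chromatin gene passed an adjusted p of 0.05 (0 of 77, where 0.00509% of all genes did). At an unadjusted p under 0.05 there were 13, or 16.9%, where 16.8% of all genes tested reached it: 9 on the positive side (8.99% of all genes) and 4 on the negative side (7.83%). The share of chromatin genes was thus that of the array at large, and the values below describe single genes and families. Whether the arrays drew on separate pools of tissue is not stated, so these p-values measure only the spread between arrays, which may be technical.

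**Figure D1:**
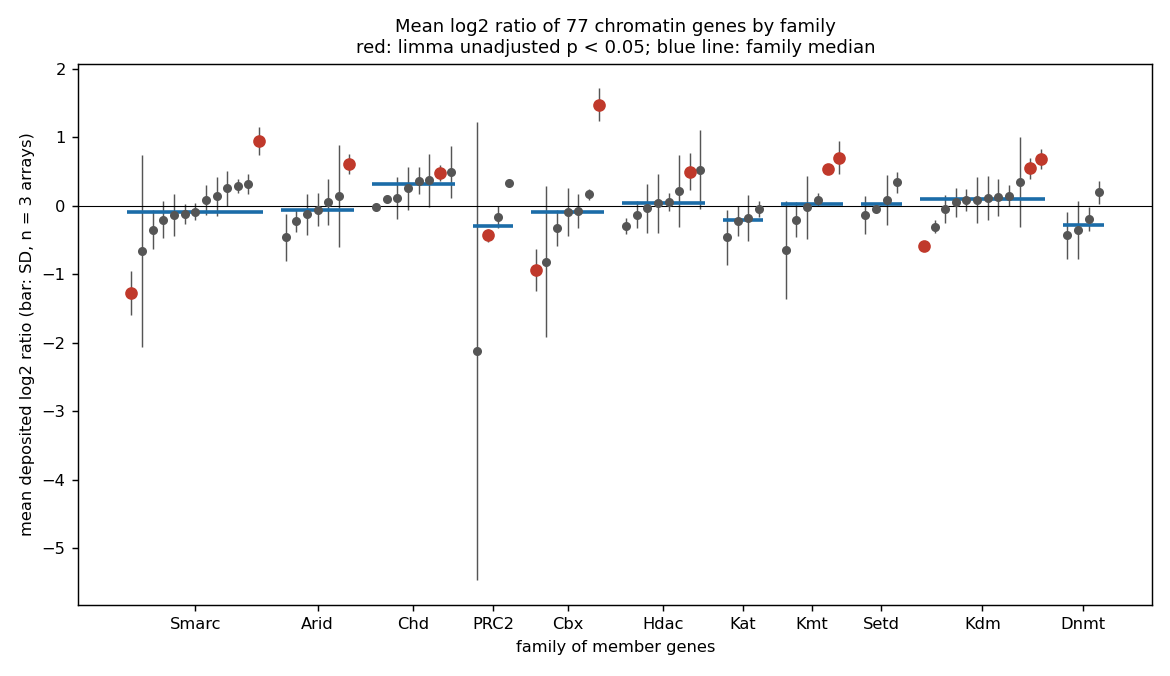
Mean deposited log2 ratio of each of the 77 chromatin genes (vertical axis), grouped by family along the horizontal axis and sorted within it. Bars are SDs over 3 arrays, red points have an unadjusted limma p under 0.05, and blue lines are family medians, which lie between -0.30 for PRC2 and 0.31 for Chd. The long bars belong to Ezh2, Smarcad1 and Cbx6.

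The arrays did not agree equally well. Across all genes tested, arrays 1 and 2 had a Pearson correlation of 0.46, while array 3 had 0.17 with array 1 and 0.16 with array 2. Among the 77 chromatin genes the values were 0.51, 0.36 and 0.35, and with Ezh2 left out (76 genes) they were 0.50, 0.52 and 0.53. These are descriptions across genes, which are not replicates. The sign was shared by arrays 1 and 2 for 57 of the 77 genes (74.0%), where 69.8% of all genes tested shared it. With array 3 it was shared by 62.3% for array 1 and 59.7% for array 2, against 57.2% and 55.7% of all genes. In 20 genes arrays 1 and 2 had 1 sign and array 3 the other. For 38 genes array 3 lay farthest from the middle of the 3 values, against 19 for array 1 and 20 for array 2. The shares of all genes tested were not computed for these counts of 20 and 38. The count of 13 became 5 without array 1, 8 without array 2 and 16 without array 3, where 8.53%, 10.5% and 19.9% of all genes were counted. Each of the 13 had 1 sign on all 3 arrays, so these fits could not turn a sign. Cbx7, Smarca1, Cbx2 and Smarca4 had an unadjusted p under 0.05 in each of the fits.

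**Figure D2:**
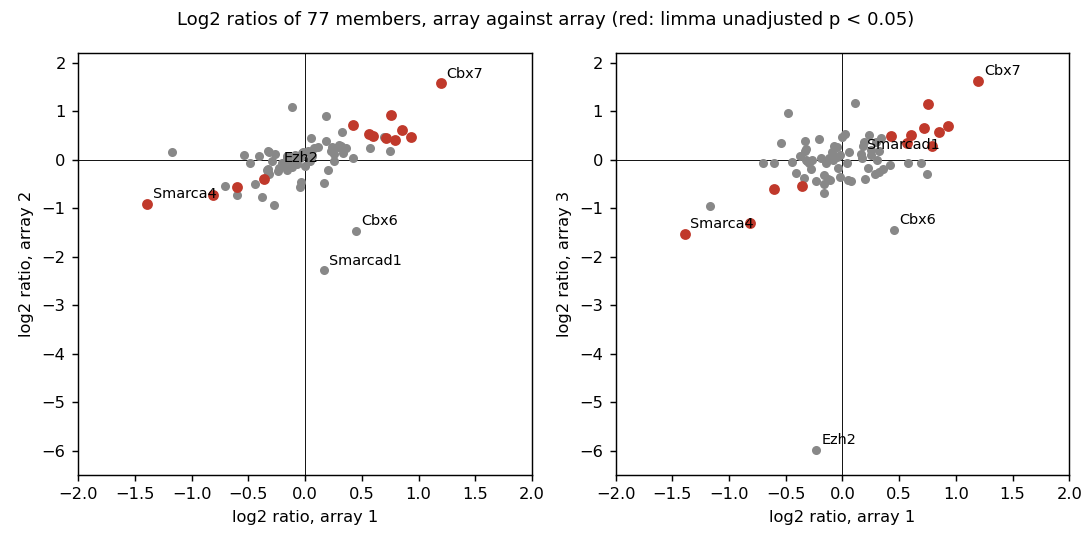
Log2 ratios of the 77 chromatin genes on array 1 (horizontal axes) against array 2 (left) and array 3 (right). Red points have an unadjusted limma p under 0.05; Ezh2 stands alone at -5.98 on array 3, and Smarcad1 at -2.28 on array 2.

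The Cbx family held the gene farthest to the positive side. Cbx proteins carry a chromodomain that binds methylated histones. Cbx1, Cbx3 and Cbx5 are the heterochromatin proteins of the HP1 group, and Cbx2, Cbx6, Cbx7 and Cbx8 are subunits of the Polycomb complex PRC1. Cbx7 had log2 ratios of 1.20, 1.59 and 1.63 on arrays 1, 2 and 3, a mean of 1.47 ± 0.24 (SD, n = 3 arrays), which is a 2.78-fold difference (limma adjusted p = 0.107). All 3 values exceed 1, and this mean lay above that of 99.4% of the genes tested. Cbx2 stood on the other side, with -0.82, -0.72 and -1.30, a mean of -0.94 ± 0.31 or a 1.92-fold difference (limma adjusted p = 0.145). The values of these alternative subunits of the same complex thus had opposite signs on every array.

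The other Polycomb Cbx genes gave no settled value. Cbx8 had -0.025, 0.14 and -0.35, arrays of opposite sign with a mean of -0.077. Cbx6 was represented by 2 oligos and had 0.45, -1.46 and -1.44, with a mean of -0.82 ± 1.10. Its low values came from a different oligo on each array: 1 oligo had -3.25 on array 2 and -0.30 on array 3, the other 0.32 and -2.58. In the HP1 group Cbx3, on the positive side of all arrays at 0.25, 0.13 and 0.10, had a mean of 0.16. Cbx5 had -0.44, -0.51 and -0.034 with a mean of -0.33, and Cbx1 had 0.17, -0.49 and 0.031 with a mean of -0.095. The difference of Cbx1 minus Cbx5 was positive on 3 of 3 arrays, from 0.020 to 0.61.

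The sequence before the start of Cbx7 is shown because this gene led the positive side. The table of RefSeq promoters (GRCm38.p6) held 65 of the 79 genes, and the 250 bases upstream of each start were searched on both strands for promoter words. These were the GC box, spelled GGGCGG, the CCAAT box, named by its letters, the TATA box with the letters TATAAA, and an E2F word, TTTGGCGC. Matches are in capitals below, and no word contains another. The window of Cbx7 (chr15:79932647-79932896, minus strand) is 64.8% G and C and holds 1 CCAAT box and 1 GC box:
Cbx7: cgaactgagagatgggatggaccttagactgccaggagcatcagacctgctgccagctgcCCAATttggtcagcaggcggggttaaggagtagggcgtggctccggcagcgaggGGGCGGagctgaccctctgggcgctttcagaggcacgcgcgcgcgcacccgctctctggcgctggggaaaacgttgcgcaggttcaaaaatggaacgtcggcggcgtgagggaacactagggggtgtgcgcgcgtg

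PRC2, the enzyme that places the mark bound by these Cbx proteins, had 4 members. Of these, 3 lay on the negative side on every array, where 19.9% of all genes tested did. Ezh1, the alternative catalytic subunit, had -0.36, -0.39 and -0.54, a mean of -0.43 ± 0.096 (limma adjusted p = 0.269), the 3 arrays lying close together. Suz12, a structural subunit, had -0.32, -0.19 and -0.0043, with a mean of -0.17. Eed, which binds the methyl mark and stimulates the enzyme, was the exception, at 0.29, 0.31 and 0.37 with a mean of 0.32 ± 0.040.

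Ezh2, the main catalytic subunit of PRC2 in dividing cells, had -0.23, -0.16 and -5.98. Its mean of -2.13 ± 3.34 rests on array 3, and without that array it was -0.20. It is therefore counted among genes of a mean past 1 only through a single spot. The mean of the 4 PRC2 genes on array 3 was -1.54 with Ezh2 and -0.059 without it, and over all arrays -0.60 with and -0.094 without. The difference of Ezh2 minus Ezh1 was 0.13 and 0.23 on arrays 1 and 2 and -5.44 on array 3.

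Other Polycomb genes, from a list of partners, lay on both sides. Of 21 measured, 11 had a positive mean and the list median was 0.012. At an unadjusted p under 0.05 there were 3 (14.3%, against 16.8% of all genes tested). All 3 were positive, where 8.99% of all genes tested were counted on that side. They were Pcgf1, the ring finger subunit of a variant PRC1, at 0.91 ± 0.068, and Phf19, an accessory subunit of PRC2, at 0.80 ± 0.29. The other was Jarid2, another accessory subunit that guides PRC2, at 0.62 ± 0.23 (limma adjusted p of 0.114, 0.171 and 0.206). The catalytic subunits of PRC1, Ring1 and Rnf2, had means of -0.23 and -0.22, and Bmi1 one of -0.070.

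The Smarc family, with 13 genes measured, had 6 positive and 7 negative means and a median of -0.091. The ISWI enzymes Smarca1 and Smarca5, which space nucleosomes, were both positive on every array. Smarca1 had 0.76, 0.92 and 1.16, a mean of 0.95 ± 0.20 and a 1.93-fold difference (limma adjusted p = 0.124), above 97.2% of the genes tested. Smarca5 had 0.18, 0.39 and 0.29, with a mean of 0.29 ± 0.10. Among the other ISWI, INO80 and SWR1 genes 8 of 17 had a positive mean, with a median of -0.011. Atrx, a remodeller of heterochromatin, stood at 0.58 ± 0.19 and Actr8, an INO80 subunit, at -1.12 ± 0.71. These 2 were the ones with an unadjusted p under 0.05, 11.8% of the list against 16.8% of all genes tested.

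**Figure D3:**
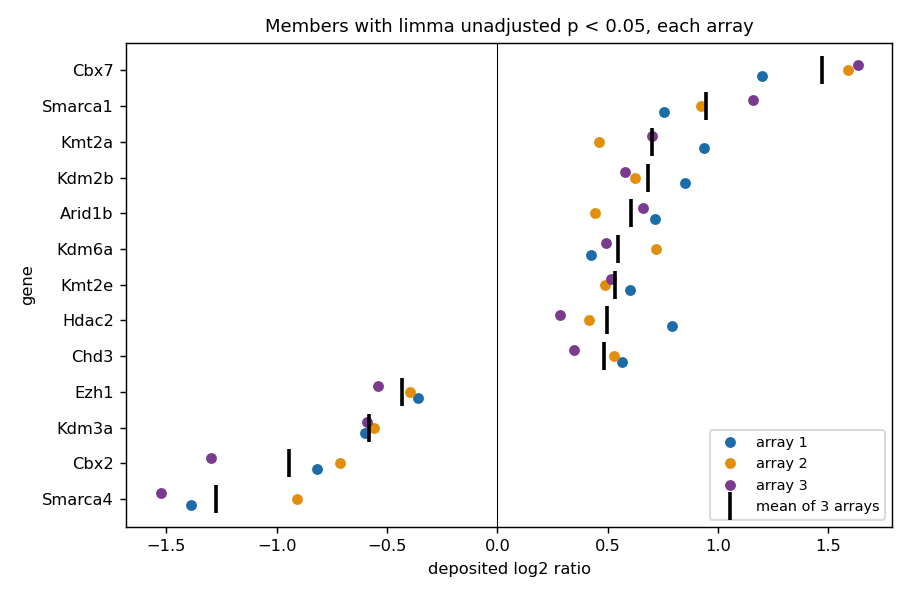
Deposited log2 ratio (horizontal axis) on arrays 1, 2 and 3 for the 13 chromatin genes with an unadjusted limma p under 0.05, with black ticks for the mean. Of these, 9 lie to the right of 0 and 4 to the left on every array, from Cbx7 at 1.47 down to Smarca4 at -1.27.

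BAF has either Smarca4 (BRG1) or Smarca2 (BRM) as its ATPase, and with the oligos of each averaged these stood on opposite sides. Smarca4 had -1.39, -0.91 and -1.52, a mean of -1.27 ± 0.32 and a 2.42-fold difference (limma adjusted p = 0.110). Smarca2 had 0.34, 0.15 and 0.45, with a mean of 0.31 ± 0.15. By these averages Smarca4 minus Smarca2 was -1.73, -1.06 and -1.97, negative on every array. The value of Smarca4 depended on the oligo. The oligo for S68108 had -2.37, -1.59 and -3.07 (mean -2.34), and the oligo for U53563 had -0.42, -0.23 and 0.024 (mean -0.21), so that the gap between oligos of the same symbol, 2.14 ± 0.88, was larger than the mean itself. In a fit that kept the oligos apart, the first had a limma adjusted p of 0.111 and the second 0.594. Smarca2 also had 2 oligos, the higher at 0.42, 0.22 and 1.00 (mean 0.55). Its lower oligo had 0.25, 0.083 and -0.097 (mean 0.079). On array 3 the second oligo of Smarca4, at 0.024, lay above this lower oligo of Smarca2, so the order on that array depended on the oligos.

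The upstream windows of Smarca1 and Smarca4 are shown as those of the remodeller ATPases farthest to either side. That of Smarca1 (chrX:47892614-47892863, minus strand) is 56.4% G and C, with 1 CCAAT box (read on the other strand) and 1 GC box. That of Smarca4 (chr9:21615919-21616168, plus strand) is 70.8% G and C, with 3 GC boxes and no CCAAT box:
Smarca1: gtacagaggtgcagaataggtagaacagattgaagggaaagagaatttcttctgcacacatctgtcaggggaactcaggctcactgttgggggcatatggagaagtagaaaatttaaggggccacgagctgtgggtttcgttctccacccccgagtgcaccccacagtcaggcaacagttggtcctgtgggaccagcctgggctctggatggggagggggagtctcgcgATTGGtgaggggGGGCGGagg
Smarca4: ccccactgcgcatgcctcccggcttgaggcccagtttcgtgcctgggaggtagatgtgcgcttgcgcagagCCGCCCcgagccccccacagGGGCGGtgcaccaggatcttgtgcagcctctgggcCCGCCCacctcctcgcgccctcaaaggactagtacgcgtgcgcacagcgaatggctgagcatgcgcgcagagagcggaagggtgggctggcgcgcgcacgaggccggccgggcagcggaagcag

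Over the 94 upstream windows of the 65 matched chromatin genes the median G and C content was 62.0%, against 57.2% for the 14361 windows of all genes tested that were in the table. The median observed over expected count of CpG, the usual measure of a CpG island, was 0.786 against 0.605. A GC box was found in 66.0% of the windows of chromatin genes and in 47.4% of those of genes tested, a CCAAT box in 31.9% and 34.9%, a TATA box in 5.32% and 9.59%, and the E2F word in 1.06% and 0.613%. Genes with several starts gave several windows, and no match of a word is a shown binding site.

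None of the remaining BAF subunits of the Smarc family had an unadjusted p under 0.05. Smarcb1, a core subunit, had -0.16, 0.041 and -0.50, arrays of opposite sign with a mean of -0.21. The scaffold genes Smarcc1 and Smarcc2 had means of 0.25 and 0.14, and the order between them changed with the array. Smarcd3, the variant of the Smarcd subunit known from heart and somite development, was negative on every array, at -0.16, -0.21 and -0.68 with a mean of -0.35, while Smarcd1 and Smarcd2 had means of -0.091 and -0.13. Smarce1 had a mean of -0.14, and its 2 oligos had means of opposite sign, 0.065 and -0.34. Outside BAF, Smarcal1, which remodels stalled replication forks, had a mean of 0.076, and Smarcad1, which acts at replicated chromatin, had 0.16, -2.28 and 0.12. The mean of Smarcad1, -0.66 ± 1.40, came from array 2.

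The Arid family holds DNA-binding subunits of BAF and relatives that act elsewhere; its 7 genes had 3 positive and 4 negative means, with a median of -0.061. Arid1b had 0.72, 0.44 and 0.66, a mean of 0.61 ± 0.14 and a 1.52-fold difference (limma adjusted p = 0.191). Arid1a, which fills the same place in BAF, had -0.32, 0.16 and -0.031, with a mean of -0.061. Arid1a minus Arid1b was -1.03, -0.28 and -0.69 as deposited, of the same sign on every array; with the ratio turned these differences turn too, and they compare ratios, not levels. Arid2, the subunit particular to the PBAF form of the complex, was negative on each array at -0.11, -0.14 and -0.41. Arid3a, a transcription factor, lay lowest in the family, at -0.60, -0.72 and -0.071 with a mean of -0.46. Arid3b, Arid4b and Arid5b had arrays of opposite sign and means between -0.13 and 0.14.

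Other BAF and PBAF subunits, from the partner list, included larger values than the Arid genes. Of 15 measured, 6 had a positive mean, the median was -0.078, and 4 had an unadjusted p under 0.05 (26.7%, against 16.8% of all genes tested). Bcl11a and Bcl11b, zinc finger proteins that associate with BAF, had means of -1.63 ± 0.87 and 1.06 ± 0.44, on opposite sides. Actl6a, the actin-like subunit of progenitor BAF, stood at -0.60 ± 0.31, and Dpf2, its plant homeodomain subunit, at 0.46 ± 0.17. Pbrm1, the bromodomain subunit of PBAF, had 0.42, 0.37 and 1.66.

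Of all families the Chd genes had the highest median, 0.31. A positive mean was seen for 7 of 8, where 50.3% of all genes tested had one. For 4 of them every array was positive, as for 21.5% of all genes tested. An unadjusted p under 0.05 was seen for 1 of 8, or 12.5%, against 16.8% of all genes tested. Chd enzymes join a helicase-like motor to chromodomains. Chd3, a motor of the NuRD corepressor, had 0.57, 0.53 and 0.35, a mean of 0.48 ± 0.12 and a 1.40-fold difference (limma adjusted p = 0.241), with both of its oligos positive on every array. Chd5, the NuRD motor known from neurons and testis, had 0.19, 0.91 and 0.37 with a mean of 0.49 ± 0.38. Chd1, which binds the methyl mark of active promoters, had a mean of 0.36, and its oligos had means of 0.64 and 0.090. For Chd2 the oligos disagreed in sign, at 0.70 and -0.20, with a gap of 0.90 ± 0.14 that was positive on 3 of 3 arrays. Chd9 was at 0.69, 0.48 and -0.063, and Chd6, Chd8 and Chd1l had means of -0.020, 0.11 and 0.10. The family's array means were 0.31, 0.33 and 0.17.

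Histone deacetylases showed no common side: 5 of 8 had a positive mean and the median was 0.043. Class I holds the nuclear enzymes of corepressor complexes. Hdac2 had 0.79, 0.42 and 0.28, positive on each array, with a mean of 0.50 ± 0.27 and a 1.41-fold difference (limma adjusted p = 0.281). Hdac1, its close paralogue, had 0.75, 0.18 and -0.29, crossing 0 with a mean of 0.21 ± 0.52, and its deposited ratio was less than that of Hdac2 on every array, by 0.045 to 0.57. Hdac3, the enzyme of the NCoR complex, had a mean of -0.13, and Hdac8 was negative on every array at -0.24, -0.23 and -0.43. In class II, whose members shuttle between nucleus and cytoplasm, Hdac9 had 0.11, 0.27 and 1.18, a mean of 0.52 ± 0.58 for which array 3 supplied the high value. Hdac5, Hdac6 and Hdac7 had means of 0.033, 0.054 and -0.038, each with arrays of both signs.

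The partners of these deacetylases in NuRD, Sin3 and CoREST leaned to the negative side in number, with 5 of 18 positive and a median of -0.18. Over all genes tested 50.3% had a positive mean. Mta1, a NuRD scaffold, stood at 0.78 ± 0.21 and Sap130, a Sin3 subunit, at 0.53 ± 0.18, while Rbbp7, a histone-binding chaperone that PRC2 and NuRD share, stood at -0.50 ± 0.17. These 3 were the ones with an unadjusted p under 0.05, 16.7% of the list against 16.8% of all genes tested. Rbbp4, the paralogue of Rbbp7, had a mean of -0.23. Of 6 sirtuins, the other class of deacylases, 1 had a positive mean, and Sirt5, a mitochondrial desuccinylase rather than a histone enzyme, stood at -1.06 ± 0.23 (limma adjusted p = 0.115).

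All 4 measured acetyltransferase genes of the Kat family had a negative mean, where 50.3% of all genes tested had a positive one. The family median was -0.20, and no member had an unadjusted p under 0.05. Kat14, a subunit of the ATAC complex, was lowest at -0.27, -0.93 and -0.19, with a mean of -0.46. Kat2a, the GCN5 enzyme of SAGA and ATAC, had -0.037, -0.46 and -0.17 with a mean of -0.22. Its paralogue Kat2b and Kat6b, an enzyme of the MOZ group, had arrays of both signs and means of -0.047 and -0.18. Kat8, the MOF enzyme, had 0.052 on array 1, its single value. Array 2 was the lowest for 3 of these 4, and the array means of the family were -0.13, -0.47 and -0.090. Outside the family, 6 of 26 acetyltransferases and partners had a positive mean, where 50.3% of all genes tested did, with a median of -0.12. Brpf1, a scaffold of the MOZ complex, stood at -1.11 ± 0.81, with -2.04 on array 3, and Epc1 and Msl3, subunits of other acetyltransferase complexes, at 0.46 ± 0.16 and 0.42 ± 0.10.

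**Figure D4:**
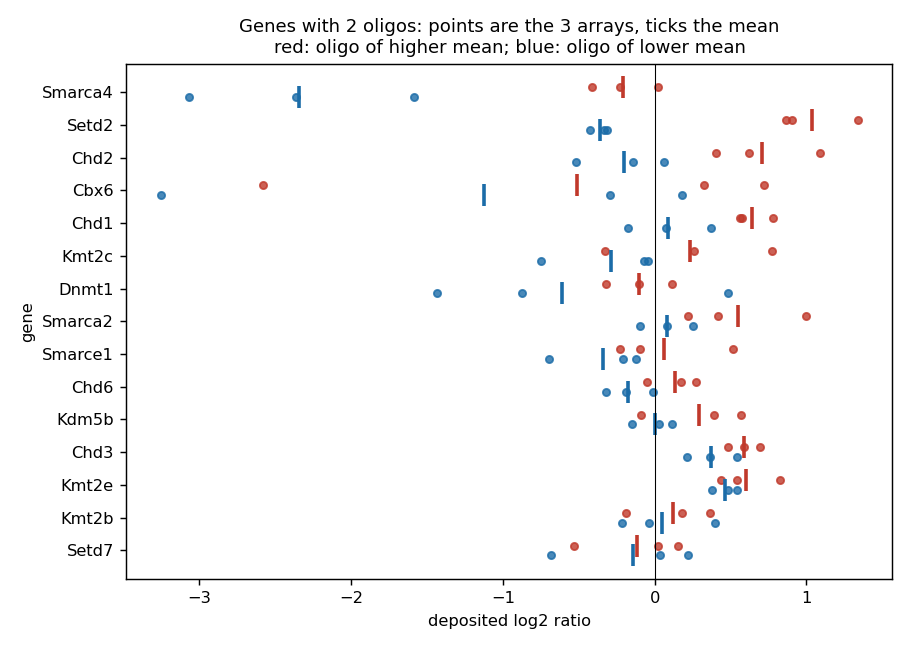
Deposited log2 ratios (horizontal axis) of the 15 chromatin genes with 2 oligos. Points are the 3 arrays and ticks the mean of each oligo, red for the oligo of higher mean and blue for the other; the gap is widest for Smarca4 (2.14) and Setd2 (1.39), and 5 genes have oligos with means of opposite sign.

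The 6 lysine methyltransferases of the Kmt group had 3 positive and 3 negative means, with a median of 0.029. Kmt2a and Kmt2e were the 2 with an unadjusted p under 0.05, or 33.3%, against 16.8% of all genes tested. Most Kmt2 enzymes place the methyl mark of active promoters and enhancers. Of the 4 Kmt2 genes measured, 3 had a positive mean, Kmt2e among them. Kmt2a, the MLL enzyme that sustains Hox expression, had 0.94, 0.46 and 0.70, a mean of 0.70 ± 0.24 and a 1.62-fold difference (limma adjusted p = 0.184). Kmt2e, a relative that reads the mark, had 0.60, 0.49 and 0.51, a mean of 0.53 ± 0.059 (limma adjusted p = 0.207), and its oligos had similar means of 0.60 and 0.47. Both were positive on every array. Kmt2b lay near 0 with a mean of 0.084, and the oligos of Kmt2c disagreed in sign at 0.23 and -0.29. Kmt5a and Kmt5b, which methylate the tail of another histone, were negative on arrays 1 and 3. Kmt5b had -1.17, 0.17 and -0.94, with a mean of -0.65 that was -1.06 without array 2.

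Of the genes that work with Kmt2 enzymes, 8 of 11 had a positive mean, where 50.3% of all genes tested did, and the median was 0.13. Psip1, which tethers Kmt2a and menin to chromatin, was the 1 with an unadjusted p under 0.05 (9.09%, against 16.8% of all genes tested). It lay on the negative side at -1.28, -0.66 and -1.27 (mean -1.07 ± 0.35, limma adjusted p = 0.133). Men1, which encodes menin, had a mean of -0.13 and Wdr5, a core subunit, one of 0.13.

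In the Setd family the reading of the leading gene depended on the oligo. Setd2, which methylates histones along transcribed genes, had 0.24, 0.27 and 0.51 when its oligos were averaged, with a mean of 0.34 ± 0.15. The oligo for AK009337 had 0.90, 0.86 and 1.34 (limma adjusted p = 0.126 when each oligo was tested alone), and the oligo for AK014960 had -0.43, -0.33 and -0.31, so each was reproducible over the arrays and they lay on opposite sides. Setd7, Setd3 and Setd6 had means of -0.13, -0.046 and 0.080, and the values of Setd5 were -0.46 and -0.28 on arrays 1 and 2. Among 14 lysine methyltransferases outside these families 6 had a positive mean; Prdm8 stood at 0.77 ± 0.49 and Prdm16 at -0.59 ± 0.42. Among the arginine methyltransferases 2 lay far to the negative side: Prmt7 had -1.62, -1.06 and -1.80 (mean -1.49 ± 0.39) and Prmt5 had -1.78, -0.98 and -1.23 (mean -1.33 ± 0.41), with limma adjusted p of 0.109 and 0.117. The other 4 of 6 had positive means.

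Among the Kdm demethylases 9 of 12 had a positive mean, where 50.3% of all genes tested did, and the median was 0.10. An unadjusted p under 0.05 was seen for 3, or 25.0% of a list of 12, where 16.8% of all genes tested reached it. Kdm2b, which brings a variant PRC1 to CpG islands, had 0.85, 0.62 and 0.58, a mean of 0.68 ± 0.15 and a 1.61-fold difference (limma adjusted p = 0.168). Pcgf1, given above, is a subunit of that variant complex and had 0.91, 0.85 and 0.98. The catalytic subunits of PRC1, Ring1 and Rnf2, had negative means of -0.23 and -0.22. Kdm6a (UTX), which removes the mark made by PRC2, had 0.42, 0.72 and 0.49, a mean of 0.55 ± 0.16 (limma adjusted p = 0.218). It escapes X inactivation, and the pools held both sexes, but a part of sex in the value of Kdm6a was not tested.

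On the negative side of the family was Kdm3a, which removes a repressive methyl mark and responds to hypoxia, at -0.60, -0.56 and -0.59. Its mean of -0.58 ± 0.022 (limma adjusted p = 0.185) had the smallest spread of all 13 genes with an unadjusted p under 0.05. Kdm1a (LSD1), the demethylase of CoREST, had -0.34, -0.20 and -0.38, also negative on every array, with a mean of -0.31. The other 8 genes, Kdm3b, Kdm4b, Kdm5a, Kdm5b, Kdm5c, Kdm5d, Kdm7a and Kdm8, had arrays of both signs. The means of these lay between -0.049 for Kdm5a and 0.34 for Kdm5d, a Y-linked gene with 1.10 on array 2 against -0.12 and 0.047 on the others. Demethylase genes outside the family, 8 measured, had 4 positive means and no unadjusted p under 0.05.

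Of the 4 DNA methyltransferases measured 3 had a negative mean, the exception being Dnmt3l, where 50.3% of all genes tested had a positive mean. Dnmt3a, an enzyme that methylates new sites, had -0.70, -0.55 and -0.056, with a mean of -0.44 ± 0.34, and Dnmt3b, its paralogue, had -0.13, -0.069 and -0.40, with a mean of -0.20. Dnmt1, which copies methylation at replication, had -0.38, -0.77 and 0.080, with a mean of -0.36. The spread of Dnmt1 lay in 1 of its oligos, with -0.87, -1.43 and 0.48, while the other had 0.12, -0.10 and -0.32. Dnmt3l, the cofactor without catalytic activity, had 0.31, 0.27 and 0.0014. The family median was -0.28, and no member had an unadjusted p under 0.05. Of 11 readers, cofactors and erasers of DNA methylation 6 had a positive mean. Uhrf1, which recruits Dnmt1, had 1.29, 0.32 and -0.96, arrays of both signs. Gadd45b, a stress-response gene linked to demethylation, stood at -0.55 ± 0.30.

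Histone chaperones, which hand histones to DNA, had 6 of 16 genes with an unadjusted p under 0.05 (37.5%, where 16.8% of all genes tested did), 3 on each side. Supt6, which acts with elongating polymerase, stood at 0.74 ± 0.034 and Hjurp, the chaperone of the centromeric histone, at 0.78 ± 0.25. On the negative side were Chaf1b, of the replication-coupled assembly factor, at -0.90 ± 0.40 and Set at -0.63 ± 0.12. Over all partner lists, 28 of 169 genes or 16.6% had an unadjusted p under 0.05, close to the 16.8% of all genes tested, 14 on each side, none passed the adjusted threshold, and the median was -0.041. Proliferation genes, measured beside them, had 11 of 22 positive means and a median of -0.038, with list means of -0.078, -0.085 and -0.19 on the 3 arrays. An unadjusted p under 0.05 was seen for 6 of them (27.3%, where 16.8% of all genes tested did). Of these 6, 5 were negative and 1 positive, where 7.83% and 8.99% of all genes tested were counted on those sides. Mcm6, a replicative helicase subunit, stood at -1.24 ± 0.28 and Rrm2, a subunit of ribonucleotide reductase, at -0.89 ± 0.35, and the positive gene was Mki67, at 0.78 ± 0.062. Their part in the values of Dnmt1, Ezh2 or Chaf1b was not tested.

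**Figure D5:**
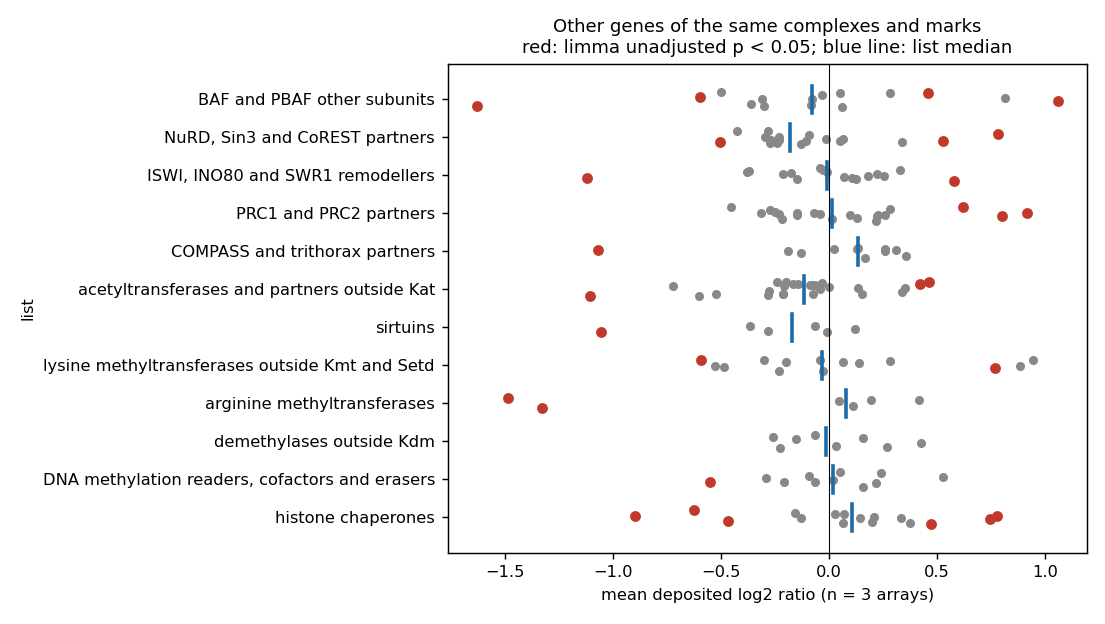
Mean deposited log2 ratio (horizontal axis, n = 3 arrays) of 169 further chromatin genes in 12 lists, some genes of which work in the same complexes as the families above. Red points have an unadjusted limma p under 0.05 and blue lines are list medians, which lie between -0.18 and 0.13; Prmt5 and Prmt7 stand apart from the other arginine methyltransferases.

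Across the 15 genes with 2 oligos the median gap between the oligos' means was 0.47 on the log2 scale, larger than the median size of a member's mean, 0.21. The gap was at least 1 for Smarca4 and Setd2, and the means had opposite signs for Setd2, Chd2, Kmt2c, Smarce1 and Chd6. Of the 13 genes with an unadjusted p under 0.05, 10 were measured by a single oligo. Among the other 3, both oligos of Chd3 and of Kmt2e lay on the side of the mean on every array, and those of Smarca4 did not.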

How the data were processed

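RNA of 13.5 dpc kidney and of 10.5 dpc metanephric mesenchyme was hybridised together on oligonucleotide arrays of the 2-colour kind, 3 in all. Per the labels, the authors read the images with ImaGene 5.5, applied print-tip loess within arrays, a normalization between arrays and a lowess curve, and deposited 1 log2 ratio of the channels per oligo. Base 2 was inferred: raised as powers of 2, 99.76% of values give a ratio with 3 decimals (tolerance 0.01 of the final decimal). Spot intensities were not used here, so dim or saturated spots could not be seen. The order of the steps and the dyes are not given in the sources used here.

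Of 22702 spots, 883 controls were left out; 16656 of 21819 oligos had 1 gene symbol, 137 several and 5026 none listed, and the latter groups were tested under their own identifiers. Oligos of a symbol with a value on all 3 arrays were averaged, and 19635 genes were tested by limma 3.58.1, run under R 4.3.3 (an intercept model, eBayes, two-sided, Benjamini-Hochberg), after a check on simulated data. An exact sign-flip test of 1 gene cannot go below p = 0.25. Precision is limited by the number of arrays, with a median SE of 0.19 for a mean. Named were members with an unadjusted p under 0.05, both ends of each family, a set fixed by name, and, from partner lists, up to 4 genes a list with an unadjusted p under 0.05 and partners of named members; all other members are given by family. Members, lists and motifs were chosen with earlier results of these data known. Alternatives were oligos singly (a gene counted if any of its oligos passed), 2 arrays sufficing, centring, scaling, array weights, robust or own variances, no spots at the lowest ratio, and each array left out.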

Additional observations from a re-analysis of the deposited data

How the results depend on the processing

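The count of 13 chromatin genes with an unadjusted p under 0.05 held with 2 arrays sufficing, with centring, with scaling, with robust variances and without spots at the lowest ratio, and the same 13 genes were counted each time. Some of these settings could change little. Of the chromatin genes' oligos 0 lay at the lowest ratio, and 2 arrays sufficing gave 78 genes in place of 77. The array medians were 0.0014, 0.030 and 0.0014 before centring. The count was 16 (20.8%) with each oligo tested singly, where a gene was counted if any of its oligos passed. Of all 21094 oligos 16.6% passed there, a share of oligos that cannot be set against the 20.8% of genes. With each gene's own variance the count was 16, where 13.9% of all genes were counted. That setting lost Hdac2 and added Eed, Hdac8, Kdm1a and Smarca5. The count was 20 with array weights, which weighted arrays 1, 2 and 3 by 1.23, 1.65 and 0.494. These weights added Arid3a, Cbx5, Chd1, Chd5, Chd9, Dnmt3a and Kat14, and 21.5% of all genes were counted there. With 1 array left out it ranged from 5 to 16, on 2 arrays. The count past an adjusted p of 0.05 was 0 under every alternative run with limma or with each gene's own variance. The 13 kept their sign under every alternative run. Each had 1 sign on all 3 arrays, so leaving out or weighting an array could not turn it. Of the other named members Arid1a, Hdac1 and Kat2b without array 1, Cbx1 and Kat6b without array 2 and Chd6 without array 3 changed sign. Among these, Hdac1 went from 0.21 to -0.056 and Kat6b from -0.18 to 0.0068. The median of the Smarc family was 0.026 without array 2, against -0.091, and the medians of Arid, Hdac, Kmt and Setd, near 0, also changed sign with an array left out. Those of Kmt and Setd did so under other alternatives too: Kmt was -0.043 with oligos singly and -0.0010 with array weights, and Setd -0.046 with 2 arrays sufficing and -0.016 with array weights. Each ratio is itself a difference within an array, so the fit already tests paired values. No paired analysis by replicate number was possible beyond that because the 3 arrays form 1 group. Without spot intensities, a value such as that of Ezh2 on array 3 could not be set against its background.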
